A study of Drosophila melanogaster with 3 samples.

Results

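The regions described are the peaks of the protein Lilliputian (lilli) on the X chromosome of Drosophila melanogaster: all rows of the authors' optimal peak list, in dm6 coordinates, whose chromosome is X. There were 1317 of them among 6970 peaks, 18.9% of the list (95% Wilson interval 18.0% to 19.8%). They were compared with the peaks on the autosomal arms 2L (1316 peaks), 3L (1389) and 3R (1671), which numbered 4376 together. The study was a ChIP-seq experiment on a single group of 3 biological replicates. Each was a pool of whole embryos of mixed sex, aged 0 to 24 h, of a transgenic strain that expresses a lilli-eGFP fusion, and chromatin was precipitated with an antibody to GFP. No control group and no untagged strain were analysed here, and peaks therefore stand for the tagged protein in whatever cells and stages held it. For each replicate the authors deposited a list of 30000 ranked regions, of which the strongest 6970 were used here to match the optimal list, and X supplied 1247, 1321 and 1296 of these in replicates 1, 2 and 3. The lists hold no reads, so sequencing depth is unknown, the labelled tissue could not be checked against marker genes, and binding in few cells cannot be told apart from weak binding in many.

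Lilliputian, the AF4/FMR2 family protein of flies, is a scaffold of the super elongation complex, which releases RNA polymerase II from its pause downstream of promoters. The X chromosome of the fly is present as a single copy in males and as a pair in females. In males its genes are transcribed more strongly through dosage compensation, in which the MSL complex and the roX RNAs spread over the X from entry sites rich in GA repeats. In a pool of both sexes the X therefore contributes fewer chromosome copies than an autosome, and the number of copies cannot be told apart from binding per copy in any comparison of signal below.

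The sequences reaching 100 bp to either side of 8 strong X summits are shown first, because the location of the strongest X peaks and a short sequence recurring beside their summits are the main results. They are plus-strand sequence of the dm6 build from RefSeq, and the name is the gene nearest to the summit or holding it. Ugalt (chrX:2703796-2703996), MFS10 (chrX:13131245-13131445), bves (chrX:21054234-21054434), ph-p (chrX:2137874-2138074) and CG11151 (chrX:13739446-13739646) are promoter peaks. The windows of norpA (chrX:4324888-4325088), NFAT (chrX:13640415-13640615) and CG32767 (chrX:5083688-5083888) lie in introns. Capitals mark the words ACAGTGG and CACAGTG on either strand (read as CCACTGT and CACTGTG on the other), and in CG11151 also TATCGATA. Ugalt holds none of them and is shown as the strongest X peak. The other 7 were chosen after their sequences were seen, as examples with a word on 1 side or on both sides of the summit, and stronger peaks without a word, such as those of CG32772, Atf3 and Tlk, are not shown. Of all strong X peaks 26.8% held a word.
Ugalt: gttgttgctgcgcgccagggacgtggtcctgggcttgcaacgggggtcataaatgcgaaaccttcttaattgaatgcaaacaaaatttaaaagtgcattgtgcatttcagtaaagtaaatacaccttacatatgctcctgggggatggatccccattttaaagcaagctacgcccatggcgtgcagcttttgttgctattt
MFS10: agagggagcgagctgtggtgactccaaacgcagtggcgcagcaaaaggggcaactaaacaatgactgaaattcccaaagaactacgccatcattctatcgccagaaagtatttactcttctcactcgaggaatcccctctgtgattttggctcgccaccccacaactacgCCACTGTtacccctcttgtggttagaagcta
bves: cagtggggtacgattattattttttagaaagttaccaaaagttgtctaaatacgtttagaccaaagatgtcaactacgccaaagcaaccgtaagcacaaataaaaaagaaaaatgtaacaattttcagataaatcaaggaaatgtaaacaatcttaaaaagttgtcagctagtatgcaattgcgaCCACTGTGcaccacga
norpA: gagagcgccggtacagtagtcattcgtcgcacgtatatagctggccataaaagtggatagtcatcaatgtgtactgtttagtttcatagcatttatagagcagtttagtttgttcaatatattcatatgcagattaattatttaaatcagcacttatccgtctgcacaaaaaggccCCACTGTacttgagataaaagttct
NFAT: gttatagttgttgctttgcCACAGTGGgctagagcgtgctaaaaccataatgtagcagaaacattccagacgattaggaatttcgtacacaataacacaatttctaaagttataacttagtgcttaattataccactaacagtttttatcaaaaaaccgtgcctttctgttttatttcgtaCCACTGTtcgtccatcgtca
ph-p: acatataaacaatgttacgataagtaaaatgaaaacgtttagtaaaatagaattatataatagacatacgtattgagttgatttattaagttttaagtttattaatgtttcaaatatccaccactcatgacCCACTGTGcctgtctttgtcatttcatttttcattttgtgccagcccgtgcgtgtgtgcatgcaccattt
CG11151: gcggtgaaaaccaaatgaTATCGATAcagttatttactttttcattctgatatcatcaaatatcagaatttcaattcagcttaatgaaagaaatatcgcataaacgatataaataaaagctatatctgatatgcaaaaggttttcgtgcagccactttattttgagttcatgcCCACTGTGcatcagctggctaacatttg
CG32767: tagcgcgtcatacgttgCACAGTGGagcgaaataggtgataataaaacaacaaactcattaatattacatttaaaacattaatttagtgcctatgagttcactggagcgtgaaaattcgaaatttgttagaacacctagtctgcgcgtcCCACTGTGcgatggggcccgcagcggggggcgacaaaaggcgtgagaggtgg

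In number, the X carried about as many peaks as an autosomal arm of its length. There were 55.9 peaks per Mb on X, 56.0 on 2L, 49.4 on 3L and 52.1 on 3R, and 53.0, 56.1 and 55.0 on X in replicates 1, 2 and 3. The X lay above all 3 arms in 1 of the 3 replicates, so it did not stand apart from the spread between arms. Against 3L alone the X had 1.13 times as many peaks per Mb, and against 2L alone a ratio of 1.00. Relative to annotated protein-coding transcription start sites (TSSs) the X was higher than every arm in all 3 replicates, with 40.2 peaks per 100 TSSs against 36.3, 37.3 and 36.8 in the optimal list. In the pooled list of 30000 the X, with 169, was below 3L (172) and above 2L (150) and 3R (155). The X held fewer genes per Mb (93.3) than the 3 arms together (105). With 3 replicates the exact sign-flip permutation test, two-sided, cannot give a p below 0.25, and it gave 0.25 for this difference and for each difference below that had the same sign in all 3 replicates. The X supplied 18.2% of the strongest 10% of peaks, 18.0% of the strongest 50%, 18.9% of the whole optimal list and 18.5% of the pooled list of 30000. In replicate 1 the share rose from 16.8% of the strongest 10% to 18.1% of the full list. It fell from 18.8% to 17.9% in replicate 2 and from 17.6% to 17.1% in replicate 3, so it had no constant direction.

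Where peaks of the optimal list lay within genes differed between X and the other arms. A summit was assigned to a promoter if it lay within 500 bp of any TSS. Failing that it went to the first that applied of 5' UTR, protein-coding exon, 3' UTR, exon of another kind and intron, and was otherwise intergenic. Promoters took 645 X peaks, 49.0% (interval 46.3% to 51.7%), against 55.5% on 2L, 53.6% on 3L and 57.9% on 3R. Among the strongest peaks of the replicates the X share was 51.7%, 50.2% and 48.5%, below all 3 arms every time, and the difference from the arms together was -5.71 percentage points ± 0.23 (SD, n = 3, exact sign-flip permutation p = 0.25). Introns took 521 X peaks, 39.6%, against 29.2%, 29.4% and 32.1% on the 3 arms. The X intron share was 38.1%, 38.8% and 39.6% in the replicates and above every arm in each, by 8.84 points ± 0.38 over the arms together (SD, n = 3). In the pooled list of 30000 the promoter difference was small, with 32.4% on X and 33.4% on the arms together, and among its lower-ranked peaks X was the higher, with 27.2% against 26.6%. The intron difference kept its direction in both, with 46.1% against 40.6% in the pooled list and 48.1% against 43.7% in its lower ranks. Intergenic summits of the optimal list were 8.05% on X, close to 3R (8.38%) and below 2L (13.4%) and 3L (14.5%).

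The make-up of the chromosomes differed as well. Introns outside promoter windows made up 43.4% of the X, 36.5% of 2L, 37.0% of 3L and 43.1% of 3R. Counted per Mb of such intron, the X had 51.1 summits, 2L 44.8, 3L 39.3 and 3R 38.8, and the X was above every arm in all 3 replicates. Counted per Mb of promoter window, the X had 217 summits, within the range of the arms (209 on 2L, 208 on 3L and 226 on 3R). So in the optimal list the density at promoters did not differ beyond the spread of the arms, while the density in introns was higher on X. The pooled list held 2555 intron summits in 10.2 Mb on X and 2145 in 8.58 Mb on 2L. It held 2585 in 10.4 Mb on 3L and 2925 in 13.8 Mb on 3R. Per Mb the X was there level with 2L and 3L and above 3R. Among the lower-ranked peaks, with 2034, 1761, 2177 and 2388, it was below 2L and 3L and above 3R.

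The difference was larger among the strongest peaks, a comparison added after the data had been seen. The strongest 10% of the optimal list included 127 X peaks, and 69 of these, 54.3% (interval 45.7% to 62.7%), were at promoters. On 2L the promoter share at that rank was 80.5%, on 3L 69.8% and on 3R 73.3%. In replicates 1, 2 and 3 the X share was 58.1%, 54.2% and 53.7%, below every arm each time, and lower by 18.6 points ± 2.50 (SD, n = 3, exact sign-flip permutation p = 0.25) against the arms together. Introns held 47 of the 127 strong X peaks, 37.0% (interval 29.1% to 45.7%), against 12.8%, 22.5% and 18.0%, and the X was above every arm in 3 of 3 replicates by 18.3 points ± 2.76. Of the 47, 16 lay between 500 and 1000 bp from a TSS (34.0%), 17 between 1000 and 2500 bp and 14 farther away (29.8%). On the arms together the numbers were 25 (32.5%), 25 and 27 (35.1%) of 77. Widening the promoter to 1000 bp, an alternative chosen after seeing the data, shrank the promoter difference in the optimal list from -20.4 to -10.6 points and kept its direction.

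**Figure D1:**
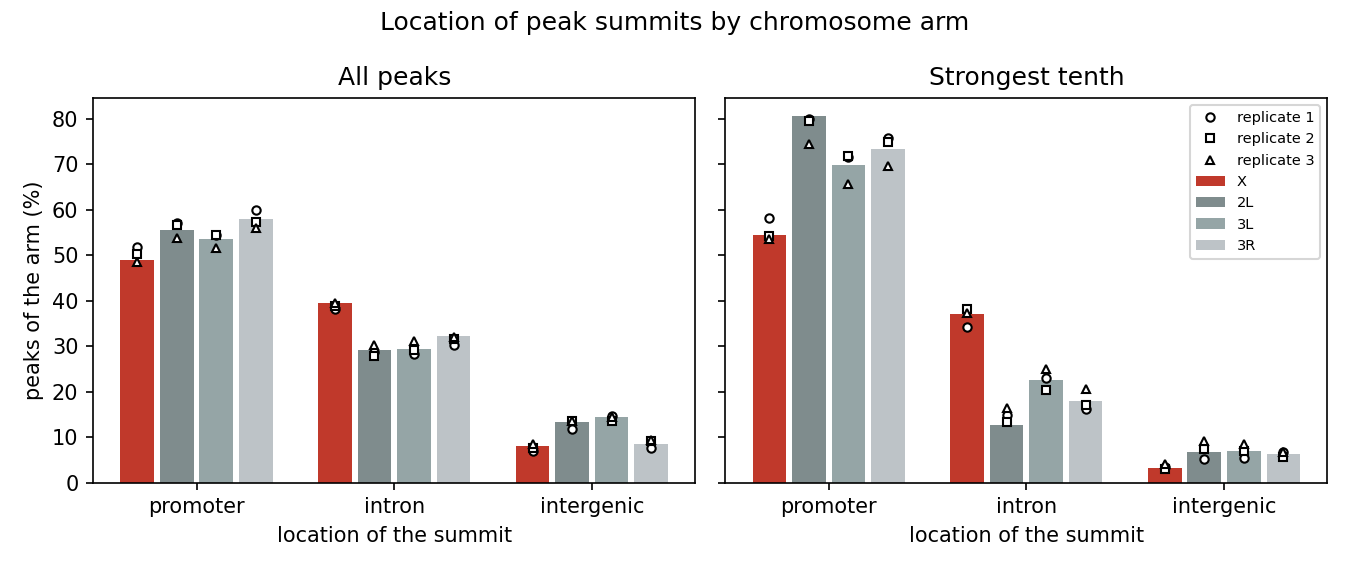
Percentage of the peaks of each chromosome arm with their summit at a promoter (within 500 bp of a TSS), in an intron or between genes, for all 6970 optimal peaks (left) and the strongest 10% (right). Bars are the optimal list and open symbols the same share among the strongest peaks of each of the 3 replicates. The X bar is the lowest at promoters (49.0% and 54.3%) and the highest in introns (39.6% and 37.0%) in both panels.

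The 47 strong intron summits fell in or beside 38 differently named genes. CHES-1-like, a forkhead transcription factor gene, held 4, of which 1 was assigned by name to lncRNA:CR43287. Raf, the kinase of the MAPK cascade, and Hr4, a nuclear receptor gene, had 3 each. Tlk, a kinase of chromatin assembly, NFAT, a transcription factor gene, and prage had 2 each. The remaining names had 1 each and included Smr, a corepressor (rank 422), N, the Notch receptor (639), Moe, the moesin linker of membrane and actin (615), and mnb, a DYRK family kinase (148). Genes outside the 20 strongest peaks were picked here after their values were seen.

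The signal of the peaks, the authors' own value for each peak and used here only within a list, followed the same division. At promoters the median signal was 200.8 on X against 226 on 2L, 228 on 3L and 223 on 3R. The median rank of X promoter peaks stood at 50.4% of the list, counted from the strongest, against 43.3%, 42.7% and 44.2%. In replicates 1, 2 and 3 it stood at 52.0%, 50.9% and 49.4%, and the X was weaker than every arm in all 3. The ratio of the X median to that of the arms together at promoters was 0.893 ± 0.0102 (SD, n = 3 replicates). In introns the order was turned around. The median intron signal was 194 on X against 187, 172 and 181, the X rank was better than on every arm in 3 of 3 replicates, and the ratio to the arms together was 1.09 ± 0.00598 (SD, n = 3). In the pooled list the promoter ratio was 0.967, and among its lower-ranked peaks it turned to 1.04, while the intron ratio was 1.06 and 1.02.

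**Figure D2:**
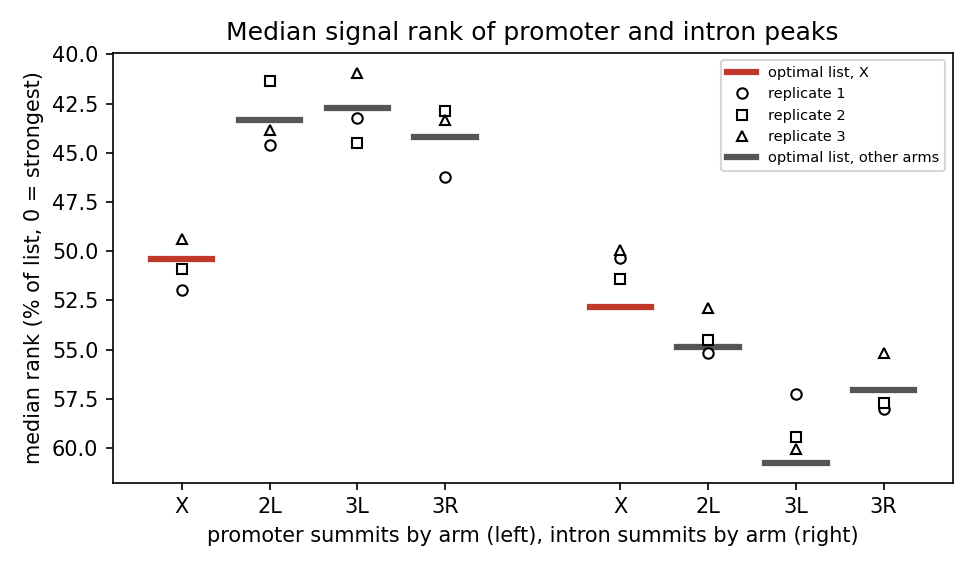
Median rank by signal of promoter summits (left) and intron summits (right) on each arm, as a percentage of the list with the strongest at the top. Lines are the optimal list and symbols the 3 replicates. The X promoter medians (52.0%, 50.9% and 49.4% in the replicates) lie below every arm, and the X intron medians (50.4%, 51.4% and 49.9%) lie above every arm.

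In the optimal list the median intron signal was highest within 2500 bp of a TSS on X and on each arm, a difference that was not tested. X intron summits within 2500 bp of a TSS, 49.1% of the 521, had a median signal of 216, against 200 on the arms together. Between 2500 bp and 10 kb the medians were 177 and 173, with 178 on 2L and 179 on 3R above the X. Beyond 10 kb, where 69 X summits lay, they were 177 and 161, with 183 on 2L above the X. On the arms together 48.9% of intron summits lay within 2500 bp of a TSS, so X intron summits were not placed closer to start sites. At promoters the summits lay mostly upstream. The median position was 90 bp upstream of the nearest TSS on X, against 75.5, 70 and 79 bp on the arms, and was farther upstream than on every arm in 3 of 3 replicates.

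The strongest X peaks also ranked high in each replicate. They were chosen by the signal of a list derived from the same 3 replicates, so these ranks are not an independent check. Ugalt, which encodes a UDP-galactose transporter, ranked 3 in the optimal list with a summit 44 bp upstream of its TSS, and ranked 4, 3 and 3 in the replicates. The second X peak lay in an intron of CG32772, 1275 bp from a TSS (rank 14, and 13, 14 and 15). The third lay 460 bp upstream of a ph-p TSS (rank 17, signal 2690) and ranked 37, 13 and 11. It was among the 3 peaks, of these 127, with the largest ratio of the highest to the lowest replicate rank (3.36). The others were a peak in an intron of CHES-1-like beside lncRNA:CR43287 (628, 343 and 1750) and the tty promoter (1125, 654 and 360). ph-p encodes polyhomeotic proximal, a subunit of Polycomb repressive complex PRC1. A further peak 397 bp downstream of a TSS of that gene ranked 96.

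The next X peaks were at lncRNA:CR44619 (rank 21), MFS10, a transporter gene of the major facilitator superfamily (29), and Atf3, a bZIP transcription factor gene (31). They were followed by intron peaks in Tlk (32), CG3726 (49) and Raf (55). CG17896 (60, a summit 510 bp upstream), bves, a Popeye family gene (67), and elav, the neuronal RNA-binding protein gene (71), came next. LPCAT, a phospholipid acyltransferase gene (73, intron), Gapdh2 of glycolysis (75) and norpA, the phospholipase C of phototransduction (77, intron), were close in rank. CG3009 (84), moody, a receptor gene of the blood-brain barrier (92), NFAT (95, intron) and TRAM, of the secretory translocon (100), completed the 20 together with the further ph-p peak. Of these 20 peaks 12 were at promoters, 7 in introns and 1 between genes. None ranked below place 150 in any replicate, and all 127 strong X peaks were among the strongest 6970 of all 3 replicates.

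Over the whole X list 63.6% of peaks (837 of 1317) had a summit within 100 bp in the strongest peaks of all 3 replicates, against 63.3% on the arms together. Single replicates recovered 80.5%, 86.4% and 83.2%. The difference between X and the arms had no constant sign over the replicates.

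Peaks were gathered in some X genes. Of 2196 protein-coding X genes 4.33% held at least 3 summits, against 2.71%, 2.99% and 3.04% on 2L, 3L and 3R, and the X was above every arm in 3 of 3 replicates. At least 10 summits were found in 8 X genes (0.364%) and in 7 genes of the 3 arms together (0.0794%). In replicates 1, 2 and 3 the X share was 0.273%, 0.364% and 0.228%, against 0.113%, 0.0454% and 0.0907%, all of them shares of few genes. X genes were also longer, with a median of 2521 bp against 2080 bp, and 3.14% of them exceeded 50 kb against 2.03%. The contribution of gene length to the counts was not tested.

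The X gene with the most summits was kirre, an adhesion protein gene of myoblast fusion, with 23 over 394 kb. The replicates gave 20, 24 and 21. Its summits were of middling signal, with a median of 197, and 19 lay in introns. The other 4 lay at promoters of Syx4, CG3588 and CG32795, genes annotated in the same stretch, so the summits cannot be assigned to kirre alone. CG1677 held 16 over 125 kb (16, 16 and 16 in the replicates), a stretch in which brk, Dok, unc-119 and CBP are also annotated, so its summits cannot be assigned to it alone. Tlk held 13 (14, 14 and 11).

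CHES-1-like and Raf held 12 each and differed from kirre in signal. The 12 summits of CHES-1-like stood within 27.0 kb with a median signal of 535, and the replicates gave 15, 10 and 14. Those of Raf had a median of 343 over 48.4 kb, with 11, 12 and 13 in the replicates. The densest 50 kb of the X, chrX:7692135-7742135, held 17 summits, 12 of them inside CHES-1-like. A window at chrX:2122206-2172206 held 15, including 5 at ph-p and 4 at its neighbour ph-d.

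**Figure D3:**
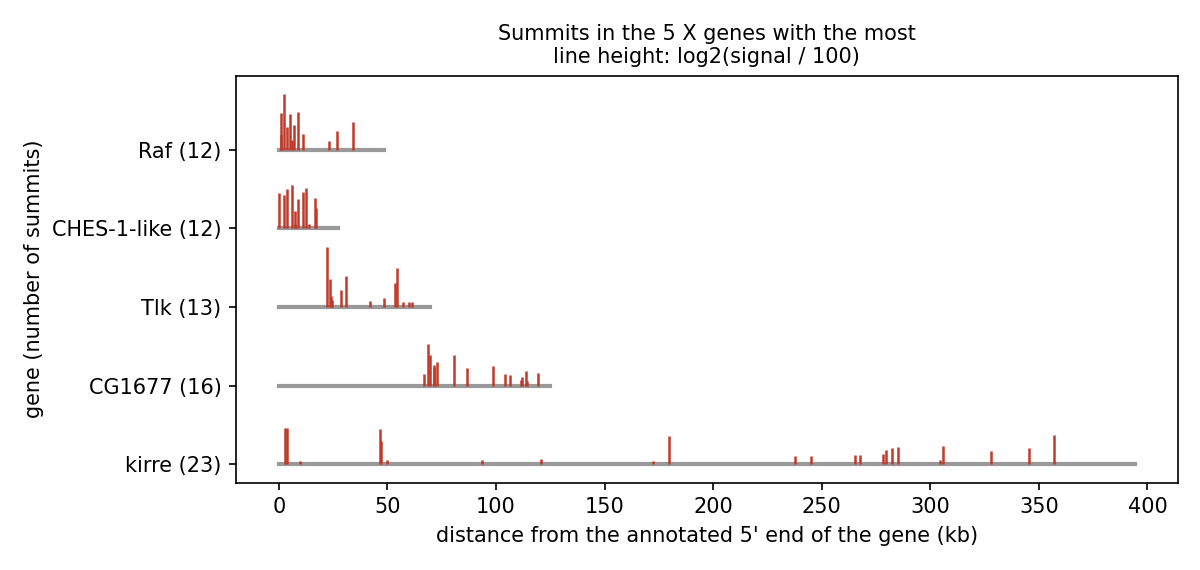
Summits in the 5 X genes with the most, by distance in kb from the annotated 5' end of the gene. Grey bars are the genes and red lines the summits, with a height proportional to log2(signal / 100). The 12 summits each of CHES-1-like and Raf stand close together, while the 23 of kirre are spread over 394 kb.

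Along the X, cut into 24 segments numbered from the telomere, each of 1 Mb except the shorter last one, the segments held between 4 and 85 peaks, with a median of 59. Segment 4, which includes part of kirre and all of dnc, Mnt and Tlk, held 84 peaks with 94 protein-coding TSSs, or 89.4 peaks per 100 TSSs. The replicates gave 75, 83 and 77 there. Segment 15 held 28 peaks with 103 TSSs. Across the 24 segments the Spearman correlation of peak and TSS numbers was 0.59, as a description of segments of a single chromosome. The last 2 segments, beside the centromere, held 9 and 4 peaks. Of the 31-base words in them only 54.7% and 29.0% occurred once in the genome, against 89.1% over the X, so few peaks cannot be told apart from few placed reads there.

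The widest interval without a peak on the X ran for 812 kb, at chrX:21631698-22443539, and contained 21 protein-coding genes, most of them gene models with no name but a number. Of the 31-base words in this interval 13.4% occurred once in the genome, against 89.1% over the X. Reads from repeated sequence cannot be placed uniquely, and absence of binding cannot be told apart from absence of placed reads there. The next interval, chrX:14238236-14483895, ran for 246 kb with 15 genes and 90.0% unique words, and includes na, dpr8 and mud. The X as a whole was within the range of the arms (91.6% on 2L, 85.6% on 3L and 88.1% on 3R).

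**Figure D4:**
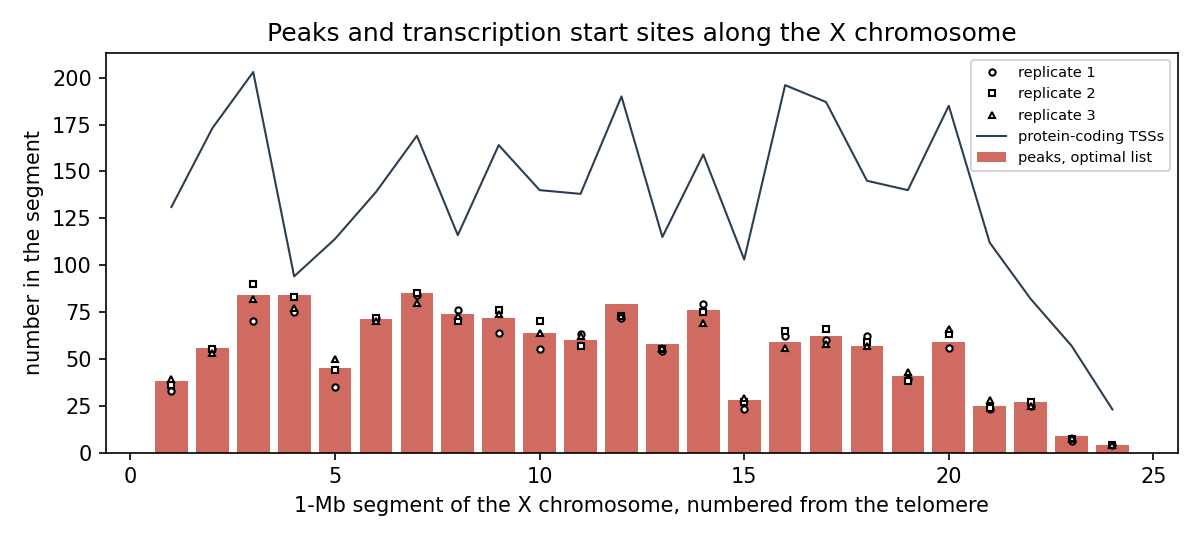
Optimal peaks (bars), peaks among the strongest of each replicate (symbols) and protein-coding TSSs (line) in 24 segments along the X, numbered from the telomere, each of 1 Mb except the shorter last one. Segment 4 has 84 peaks with 94 TSSs, and segments 23 and 24 have 9 and 4 peaks.

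Of the protein-coding X genes 31.3% had a summit within 500 bp of a TSS and are called bound (688 of 2196), against 30.6% on 2L, 31.1% on 3L and 33.8% on 3R. In the replicates the X share was 30.3%, 32.3% and 29.7%, and its difference from the arms together, -0.448 points ± 0.709 (SD, n = 3, exact sign-flip permutation p = 0.50), was smaller than the spread. Lists of X genes are described by their counts beside this background of 31.3%.

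The X genes of dosage compensation and sex determination were bound in 3 of 9 cases, in the optimal list and in each replicate. The 9 include the noncoding genes lncRNA:roX1, which is among the 3, and lncRNA:roX2, while the background counts protein-coding genes alone. Sxl, the switch gene of female development, had a peak 434 bp from a TSS (signal 438, ranks 859, 1162 and 1396). snf, a spliceosomal protein gene needed for Sxl splicing, shared a peak with its neighbour Cdk7 (299). lncRNA:roX1 had a weak peak 80 bp upstream (168, ranks 4882, 4658 and 3927). lncRNA:roX2 and mof, the acetyltransferase gene of the MSL complex, had no optimal peak, but both had a promoter peak in the lower ranks of the pooled list. The X-counting genes sc, sisA and upd1 had none in either list, and run had one in the pooled list alone. Embryonic patterning genes were bound in 2 of 15 cases, sgg (the GSK3 kinase, 1176) and arm (beta-catenin, 123), the latter in 2 of the 3 replicates. The replicates gave 4, 1 and 2 of the 15. Sp1, btd and disco were among those without an optimal peak.

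Chromatin and transcription genes were bound in 12 of 16 cases and cytoplasmic ribosomal protein genes in 11 of 13. In the replicates the counts were 12, 11 and 12, and 11, 12 and 9. The strongest chromatin genes were ph-p (2690), Top1, a topoisomerase (601), usp, a nuclear receptor (442), and fs(1)h, a BET bromodomain protein (333). The last shared its peak with the integrin gene mys, its neighbour. Those without a peak at a TSS included Myc, Smr and e(y)3. Smr held 5 summits inside the gene. Among ribosomal protein genes RpL22 (368), RpL17 (317), RpS5a (307) and RpS28b (278) were the strongest, at ranks 1441 to 2253, and RpL7A and RpS14a were not bound. The nearest summit in a replicate lay below the strongest 6970, or was absent within 100 bp, for RpS5a and RpS28b in replicate 1.

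Signalling genes were bound in 11 of 22 cases, led by sgg, par-6 of cell polarity (693), Mer, the Merlin tumour suppressor (592), and mys (333). Dsor1, dx and fu were not, and fu was bound in replicate 1. Nervous system genes were bound in 7 of 20, led by elav (1657), dnc, the cAMP phosphodiesterase (1338), Imp (177) and Nrg (169), while Appl, Sh and ac were not. Cell cycle genes were bound in 3 of 11, and in 3, 6 and 5 in the replicates: wapl (231), Klp3A (186) and Pp4-19C (185). CycD, Myb and Rbf were not bound in the optimal list, though each was in at least 1 replicate. Classical visible marker genes were bound in 6 of 21, with car (458), cv (228), rb (206) and fw (205) strongest, and B-H1, B-H2 and bi without a peak at a TSS.

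No egg shell or yolk gene (Cp36, Cp38, Cp7Fa, Cp7Fb, Cp7Fc, Yp1, Yp2 and Yp3, 0 of 8) and no chemoreceptor gene (0 of 25) had an optimal peak at a TSS, in the optimal list or in any replicate. These genes are known for use in ovary, fat body and sense organs.

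Beside the X summits, 2 overlapping words of 7 letters recurred. They were found by counting every word of 7 letters in the windows reaching 100 bp to either side of the 127 strong X summits, and were the first by ratio to all X windows among words in at least 20 peaks, so their share in those peaks is a description. The search and its minimum of 20 peaks were set after the data had been seen. ACAGTGG was in 27 of the 127 windows (21.3%) and in 2.56% of all X windows. CACAGTG was in 20 (15.7%) against 2.45%. Either word was in 34 of the 127 (26.8%, interval 19.8% to 35.1%), in 11.8% of the other 1190 optimal X peaks, in 7.57% of X peaks in the lower ranks of the pooled list and in 4.07% of all X windows. The share fell with rank in peaks that had not been used to find the words.

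On the 3 arms, also not used to find them, either word was in 15.03% of the strongest 10% of peaks, 9.63% of the others, 5.75% of the lower-ranked, and 3.74% to 3.84% of all windows. Among the other optimal peaks the X share of 11.8% was beside 11.6% on 2L, 8.97% on 3L and 8.68% on 3R. Among the other optimal peaks, intron summits held a word more often than promoter summits both on X (16.46% and 8.68%) and on the arms together (13.1% and 7.38%).

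The words stood at a distance from the summit and in a prevailing orientation. In the strong X peaks 35 of 41 word matches (85.4%, interval 71.6% to 93.1%, with matches of 1 window not independent) read ACAGTGG or CACAGTG on the plus strand when left of the summit and the reverse complement when right of it. This arrangement was noticed in these windows before it was counted, so its share there is a description. In the other optimal X peaks this held for 133 of 169 (78.7%), and in the lower-ranked pooled X peaks for 209 of 339 (61.7%). Relative to the middle of all X windows it held for 48.9%, so that neither orientation prevailed there. On the arms the shares were 76.3%, 74.1% and 61.1%. The median distance of the nearest word was 67.5 bp in strong X peaks and 62 bp in all optimal X peaks, against 70 and 55 bp on the arms together. Of X optimal peaks with matches on both sides, 6 of 6 among the strongest and 14 of 20 among the others had the words in that outward arrangement, as in the windows of NFAT and CG32767. On the arms together 6 of 7 and 21 of 28 such peaks had it. No factor is assigned to the words here.

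**Figure D5:**
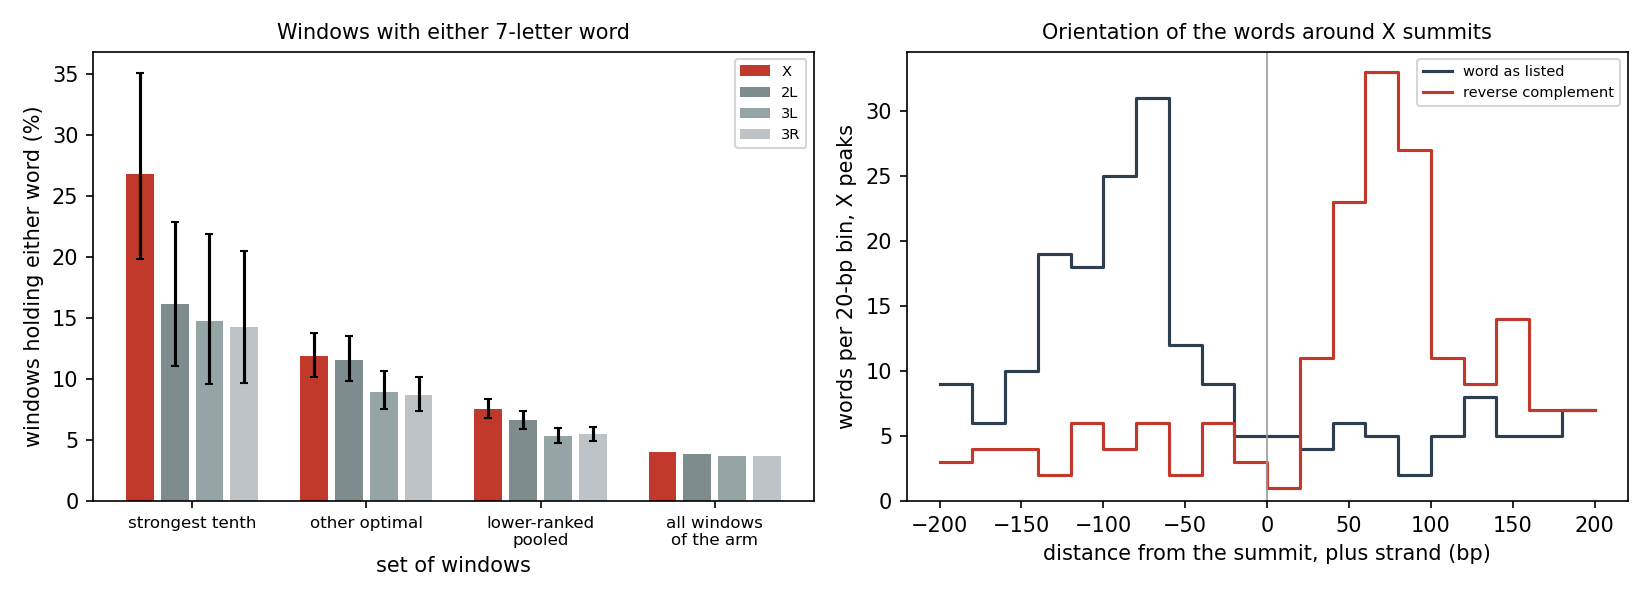
Left, percentage of windows (100 bp to either side) holding ACAGTGG or CACAGTG on either strand, for the strongest 10% of optimal peaks, the other optimal peaks, lower-ranked pooled peaks and all windows of the arm, with 95% Wilson intervals on the peak sets; X falls from 26.8% to 4.07%. Right, number of matches per 20 bp around all 1317 X summits by orientation, with 31 matches as listed between 80 and 60 bp left of the summit and 33 reverse complements between 60 and 80 bp right of it.

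The other 5 words were GAGAGAGA, CACACACA, TATCGATA, GGTCACAC and CAGGTAG, on both strands, of which CACACACA and GGTCACAC can overlap in part. In the optimal list, X was highest both in peaks and in background windows for CACACACA and, at promoters, TATCGATA. This was not so for the other words. GAGAGAGA, a repeat of the kind found in MSL entry sites, was in 1.37% of X peaks against 1.37%, 1.44% and 1.80% on the arms. Its difference from the arms had no constant sign over the replicates. All X windows held it in 1.54% and those of the arms in 1.02%, 1.09% and 1.05%, so X was highest in the background and not in peaks. CACACACA was in 4.71% of X peaks against 2.81%, 2.95% and 2.57% on the arms, above every arm in 3 of 3 replicates. All X windows held it in 5.77% and those of the arms in 3.84%, 3.52% and 4.001%, so X was also the highest in windows of the whole chromosome. TATCGATA, the core of the DNA replication-related element of housekeeping promoters, was in 10.7% of X promoter peaks and 8.80% of those of the arms, and the X was above every arm in 2 of 3 replicates. It was in 8.06% of windows at X TSSs against 4.87%, 4.47% and 5.20%. GGTCACAC, part of a core promoter element, was in 4.81% of X promoter peaks and 5.69% of those of the arms. Over peaks of all locations the X was below every arm in 3 of 3 replicates. Windows at X TSSs held it in 5.20% against 4.29%, 5.02% and 4.60%, so for this word, too, the peaks did not follow the order of the background. CAGGTAG, the site of the early activator Zelda, was in 1.06% of X peaks (14 peaks) against 0.456%, 0.720% and 1.14% on 2L, 3L and 3R. In the replicates X was above every arm in 3 of 3. All X windows held it in 1.00% against 1.11%, 1.09% and 1.07% on the arms, so X was lowest in the background.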

How the data were processed

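Peak lists of 3 replicates labelled biological, the pooled list and the optimal list were used in dm6. Their signal column was made by the authors and deposited with no stated scale, so it served only for ranks and ratios within a list. For the aligner and the peak caller, names and versions were not given in the sources used here. The optimal list equals the strongest 6970 of the pooled 30000 peaks by that signal. Location, TSSs and genes came from Ensembl release 115 (transposable elements left out) and sequence from the RefSeq copy of release 6, whose arm lengths fit the peaks. Counting ran in Python 3.11.15 with pandas 2.3.3 and numpy 2.4.6, tests in scipy 1.17.1 and plots in matplotlib 3.10.9. The counting was tested on simulated peaks. The X was compared with 2L, 3L and 3R in each replicate by an exact two-sided sign-flip permutation test, and shares carry 95% Wilson intervals over peaks, which are not replicates. Replicate lists of 1 experiment measure only the spread between these samples.

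Named genes were those of the 20 strongest X peaks (nearest TSS within 1000 bp, otherwise the gene holding the summit), the 5 X genes with most summits, the 3 strong peaks with the largest ratio of replicate ranks, and, from each of 10 lists, up to 4 bound members by signal and up to 3 unbound ones in alphabetical order, and every member of a list no longer than 9 genes. Other names were chosen after their values were seen. The members and lists were chosen with earlier results of these data known. Listed symbols without a match on X, such as phl, now Raf, were left out. Alternatives are given in the closing section.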

Additional observations from a re-analysis of the deposited data

How the results depend on the processing

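In 34 of 101 alternatives the value moved by less than the standard deviation over replicates. Values given without single replicates keep the optimal peaks with a summit within 100 bp among the strongest peaks of both other replicates. For recovery the share so matched was compared. The optimal list, its signal and its ranks still came from all 3 replicates. These values therefore show a filter by recovery and not the removal of a replicate. A direction is said to turn only where all 3 replicates shared its sign, a rule settled after first values had been seen; the signs for GAGAGAGA were mixed. X density over the arms (1.07) was 1.02 in the strongest 50% of peaks, 1.00 (0.9995) against 2L alone, where it turned below 1, 1.13 against 3L alone, and 1.06 to 1.09 without single replicates. The promoter difference (-6.83 points) was -8.32 and -4.36 with windows of 250 and 1000 bp, -11.5 in the strongest 50%, -6.36 with protein-coding TSSs, -6.50, -4.66 and -8.89 against 2L, 3L and 3R, and -8.63 to -8.15 without single replicates. Among the strongest 10% (-20.4), with alternatives added after seeing the data, it was -23.5 and -10.6 with those windows, -26.2 against 2L, -15.4 against 3L and -20.6 to -20.2 without single replicates. All 127 strong X peaks passed each of these replicate filters, so the X share could not change and this last range does not test stability. The median rank difference (2.74% of the list, X weaker) turned to -1.38 in the pooled list and -2.42 outside promoters, and was 6.51 at promoters, 0.725 per bp of width and 0.904 to 2.43 without single replicates. The bound gene difference (-0.688 points) was 1.39 with summits anywhere in the gene, -3.87 in the strongest 50%, 5.59 in the pooled list, 0.694, 0.260 and -2.52 against 2L, 3L and 3R, and -2.08 to -1.63 without single replicates. The recovery difference (0.231 points) was 2.76 within 50 bp and -0.693 to 1.09 without single replicates. The share with any of the 5 words (1.83 points over the arms) was 0.634 and 5.33 with windows of 50 and 200 bp, 3.08 at promoters, 2.35 outside and 1.32 to 2.09 without single replicates. Single words turned for TATCGATA within 50 bp (-0.320), GGTCACAC outside promoters (0.330) and CAGGTAG within 200 bp (-0.00583). The causes were not tested. No paired analysis was possible because there was only 1 group of samples; the X and the arms were compared within each replicate. Depth is unknown.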

Other observations

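In the optimal list more X peaks than peaks of the other arms lay in 3' UTRs. There were 21, 1.59% of X peaks, against 0.684% on 2L, 0.576% on 3L and 0.479% on 3R. In replicates 1, 2 and 3 the X share was 1.76%, 1.89% and 1.62%, above every arm each time. In the pooled list the shares were closer, with 3.95% on X, 3.46% on 3R and 3.01% on the arms together, and among its lower-ranked peaks 4.68% on X and 4.38% on 3R. Per Mb of 3' UTR the X had 15.1 summits against 9.29, 7.52 and 5.69. The strongest, each picked after its values were seen, were at CG7872 (rank 250, replicate ranks 404, 260 and 184), at pigs and APC7 (318), at stas (920) and at CG8206 (1041). The CG7872 window holds CACAGTG and CAGGTAG.

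Coding exons held 4 X summits, 0.304% of the X peaks, and 5' UTRs outside promoter windows held 9, the strongest of them in baz, a gene of cell polarity, at rank 292. The deposited dm3 version of the optimal list held 1280 X peaks of 6719.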
